A study of Mus musculus with 12 samples.

Results

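The integrated stress response and the unfolded protein response were followed through 42 genes in whole jejunum, the part of the small intestine between duodenum and ileum, of mice with an induced knockout of Fgfr1op (KO) and of wild-type mice (WT). The 42 genes were named by symbol: the stress sensors of the endoplasmic reticulum (ER), the transcription factors that act below them, targets of ATF4, enzymes of serine and asparagine synthesis, and chaperones and degradation factors linked to IRE1 and ATF6. All 42 of the 42 had a probe set of their own, out of 19938 genes measured. They were described in 7 branches by their role in the pathway. The groups were KO at days 6, 9 and 12 and WT at days 6, 9 and 12 on a scale that counts days post-tamoxifen, with 2 mice in each of the 6 groups and 1 array per mouse. The labels' protocol, which is the same for KO and WT samples, describes 5 daily intraperitoneal doses of tamoxifen at 75 mg/kg in corn oil. The promoter that drives the recombinase, the deleted exons, the strain and the age of the mice were not found in the labels or the series record. Effects of a recombinase and of the gene loss cannot be told apart. Fgfr1op encodes a centrosomal protein, and its current symbol is Cep43.

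Stress in a cell is passed on by kinases that phosphorylate the initiation factor eIF2. General translation then drops, while translation of ATF4 rises, and ATF4 switches on genes for amino acid synthesis, amino acid uptake and feedback control. PERK is the member of these kinases that sits in the ER membrane and senses unfolded protein. Beside it stand IRE1, which splices Xbp1 mRNA, and ATF6, which is cleaved to a transcription factor, and both of these raise ER chaperones and ER-associated degradation. In the gut these pathways are best known from secretory cells such as Paneth, goblet and plasma cells, which carry a heavy load of secreted protein. The arrays measured RNA, so eIF2 phosphorylation, ATF6 cleavage and the spliced form of Xbp1 were not measured.

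The values were log2 signals of a single-colour array, here called signals, and each difference is KO minus WT on that scale, with its standard error (SE) from a fit in which all 12 arrays share the spread. A gene was called at a limma adjusted p under 0.05, with Benjamini-Hochberg adjustment over the 19938 genes. A signal compares the same gene between arrays and not 1 gene with another. The p-values rest on the spread between mice within groups, pooled over the 6 groups and drawn by limma toward that of other genes. Within a group, the correlation between both arrays was 0.992 to 0.997. The targeted gene, Cep43, had signals of 6.69 and 6.56 in KO and 6.97 and 6.90 in WT at day 6, and 6.6 and 6.63 in KO and 6.96 and 7.05 in WT at day 9. At day 12 Cep43 had 6.97 and 6.74 in KO and 6.83 and 7.04 in WT. Its difference was -0.31 (SE 0.11, adjusted p = 0.267) at day 6, -0.39 (SE 0.11, adjusted p = 0.0184) at day 9 and -0.09 (SE 0.11, adjusted p = 0.638) at day 12. It fell at day 9 and was not called at days 6 and 12, and where its probes lie relative to the deleted stretch is not stated in the labels.

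Markers of the tissue's cell types were read on the same arrays because the RNA came from whole tissue, in which fewer cells of a type and less RNA per cell cannot be told apart. The mean signal of 8 jejunal enterocyte markers was 12.64 to 12.66 in KO and 12.62 to 12.81 in WT at day 6, 11.80 to 11.89 in KO and 12.87 to 12.90 in WT at day 9, and 11.38 to 11.71 in KO and 12.87 to 12.89 in WT at day 12. Signals have no zero on this scale; these list means lay far above the median of all probe sets on every array. Of the 8, 4 fell at day 9 and 4 at day 12, with median differences of -0.50 and -0.64. Lct, the lactase gene, was the extreme of the list and weighs on its mean, with 5.73 and 6.29 in KO and 12.41 and 12.25 in WT at day 12. Cdh17 (-0.26), Fabp2 (-0.17), Epcam (-0.04) and Apoa4 (0.12) were not called at day 9. Of all genes, 12.6% rose and 17.1% fell at day 9, and 13.7% rose and 13.7% fell at day 12. At day 6, the mean of 10 smooth muscle markers was 7.64 to 7.82 in KO and 8.79 to 9.50 in WT, with 0 of 10 called by limma and 9 of 10 at an unadjusted p under 0.05. Over all genes, 2359 of 19938 had an unadjusted limma p under 0.05 at day 6. At day 12, 5 of 6 Paneth cell markers, 6 of 7 T cell markers, 4 of 8 B and plasma cell markers and 4 of 5 markers of dividing cells fell, whereas Sdc1 of the B and plasma cell list rose (1.11, SE 0.11, adjusted p = 2.33e-05). At day 9, 5 of 7 T cell markers fell. Of 6 fibroblast markers, 3 rose at day 9 and 3 at day 12, with list means of 9.54 to 9.69 in KO and 8.83 to 9.26 in WT at day 9 and of 9.70 to 9.89 in KO and 9.32 to 9.35 in WT at day 12. The day 12 mean over the Paneth list was 9.66 to 9.82 in KO and 10.57 to 10.81 in WT, and that over the B and plasma cell list 6.44 to 6.57 in KO and 7.0 to 7.79 in WT. The B cell gene Ms4a1 differed widely between these WT arrays, with 3.91 in replicate 1 and 7.15 in replicate 2. Goblet cell markers averaged 10.29 to 10.74 in KO and 10.48 to 10.57 in WT at day 12, with 1 rise (Tff3) and 1 fall (Clca1) among 7. Markers of pancreatic acinar cells, a neighbouring secretory tissue, averaged 5.15 to 5.51 over the KO arrays and 5.18 to 5.35 over the WT arrays, below that median, which was 5.99. The part of these shifts in the results that follow was not tested. The smooth muscle mean was entered as a covariate in an alternative fit. At day 6 that mean did not overlap between KO and WT, so its part and that of the genotype cannot be told apart there.

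**Figure D1:**
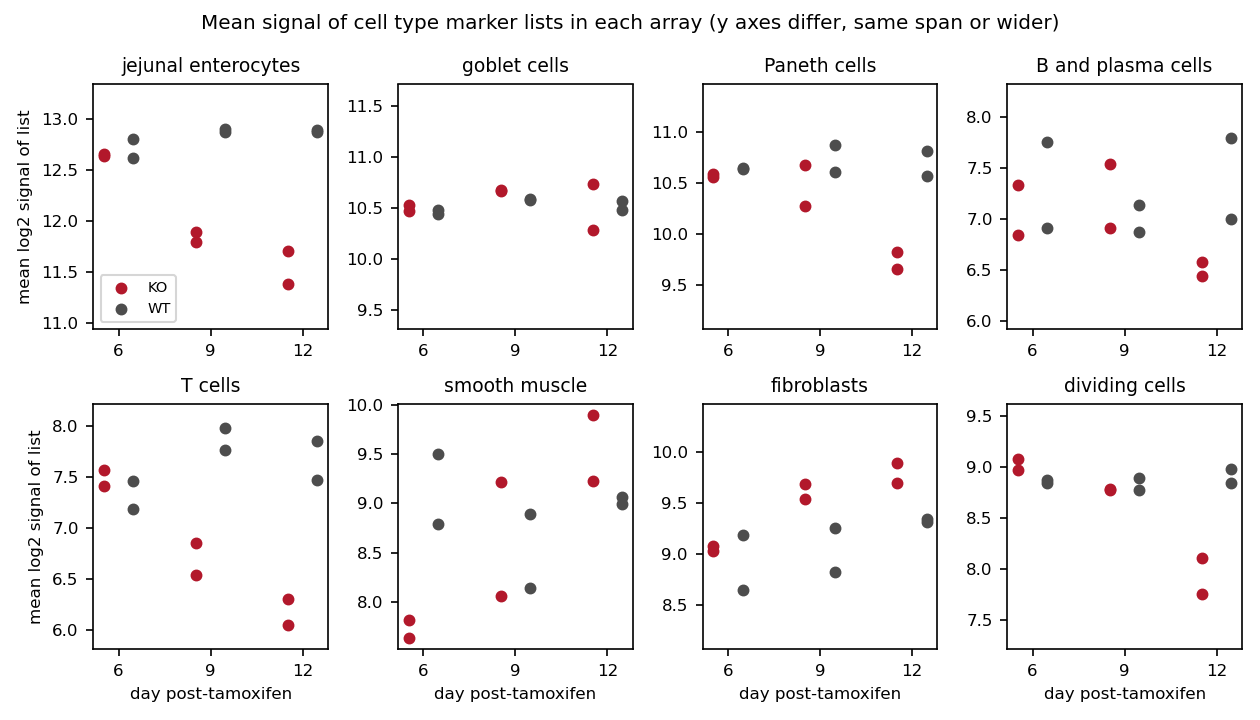
Mean log2 signal of 8 cell type marker lists (y axis, ranges differ between panels) in each of the 12 arrays by day post-tamoxifen (x axis), with KO arrays in red left of WT arrays in grey. The KO arrays lie below the WT arrays for smooth muscle at day 6, for enterocytes and T cells at days 9 and 12, and for Paneth cells, B and plasma cells and dividing cells at day 12.

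The 42 genes differed by branch in KO jejunum. Among genes below ATF4 the largest rises were seen: Vldlr, the receptor for very low density lipoprotein, was 13.6-fold higher at day 12, Asns, asparagine synthetase, 3.79-fold, and Chac1, an enzyme that breaks down glutathione, 3.22-fold. The WT signals of Vldlr at day 12, 6.23 and 6.16, lay near the median of all probe sets. No ER chaperone or folding enzyme among the members was called higher: the protein disulphide isomerase Pdia4 was 2.26-fold lower at day 12, and the chief ER chaperone Hspa5 (BiP) differed by -0.07 (SE 0.10, adjusted p = 0.7). At day 6, 3 of 42 members were called, all 3 higher, against 1.03% of all genes (0.597% higher and 0.431% lower). At day 9, 24 of 42 were called, 17 higher and 7 lower, against 29.7% of all genes (12.6% higher and 17.1% lower). At day 12, 30 of 42 were called, 20 higher and 10 lower, against 27.3% of all genes (13.7% higher and 13.7% lower). These shares also stand beside the counts per branch given below. The members were chosen with earlier results of these data known, so the distance from these shares is no test of the set. The median difference of the 42 was 0.06, 0.16 and 0.28 at days 6, 9 and 12, beside 0.00, 0.02 and 0.02 over all genes. In all, 16 members were higher and 4 were lower at both days 9 and 12, and 0 of the members called at both days had opposite directions. The 8 that were called at no single day were Stc2, Fgf21, Phgdh, Shmt2, Hspa5, Dnajb9, Dnajc3 and Manf.

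**Figure D2:**
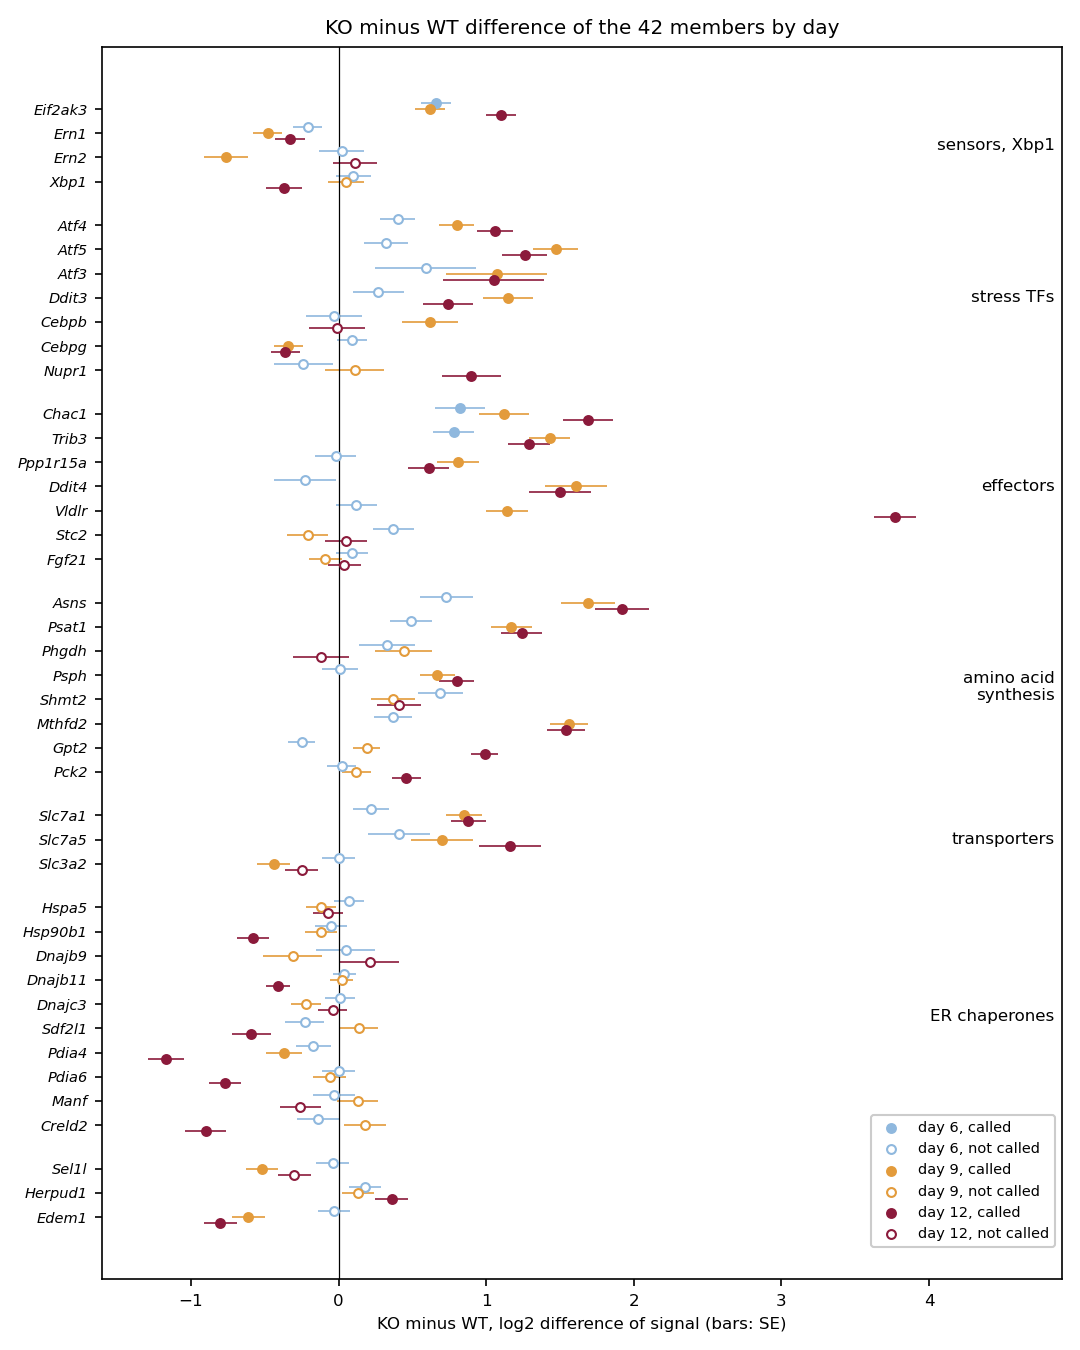
KO minus WT difference in log2 signal (x axis, bars are SE) for each of the 42 members (rows, grouped by branch) at days 6 (blue), 9 (orange) and 12 (dark red), with filled points where the limma adjusted p was under 0.05. Called members of the effector and amino acid synthesis branches lie right of 0, the called ER chaperones lie left of it, and Vldlr at day 12 lies farthest out at 3.77.

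At day 6 the 3 members called were Eif2ak3, Chac1 and Trib3, and both KO arrays lay above both WT arrays for 18 of the 42 members and below them for 5, where 44.6% of all genes had groups that did not overlap in either direction. The count of 3 became 0 if KO replicate 1, KO replicate 2 or WT replicate 1 of that day was left out, and 1 if either WT array of day 12 was. It was also 0 with the smooth muscle mean as a covariate, under which 20 genes in all passed at day 6 in place of 205. As that mean did not overlap between KO and WT at day 6, the fit cannot tell its part from that of the genotype. At days 9 and 12, both KO arrays lay above both WT arrays for 24 and 22 members and below them for 11 and 12, and 65.8% and 58.2% of all genes had groups that did not overlap.

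**Figure D3:**
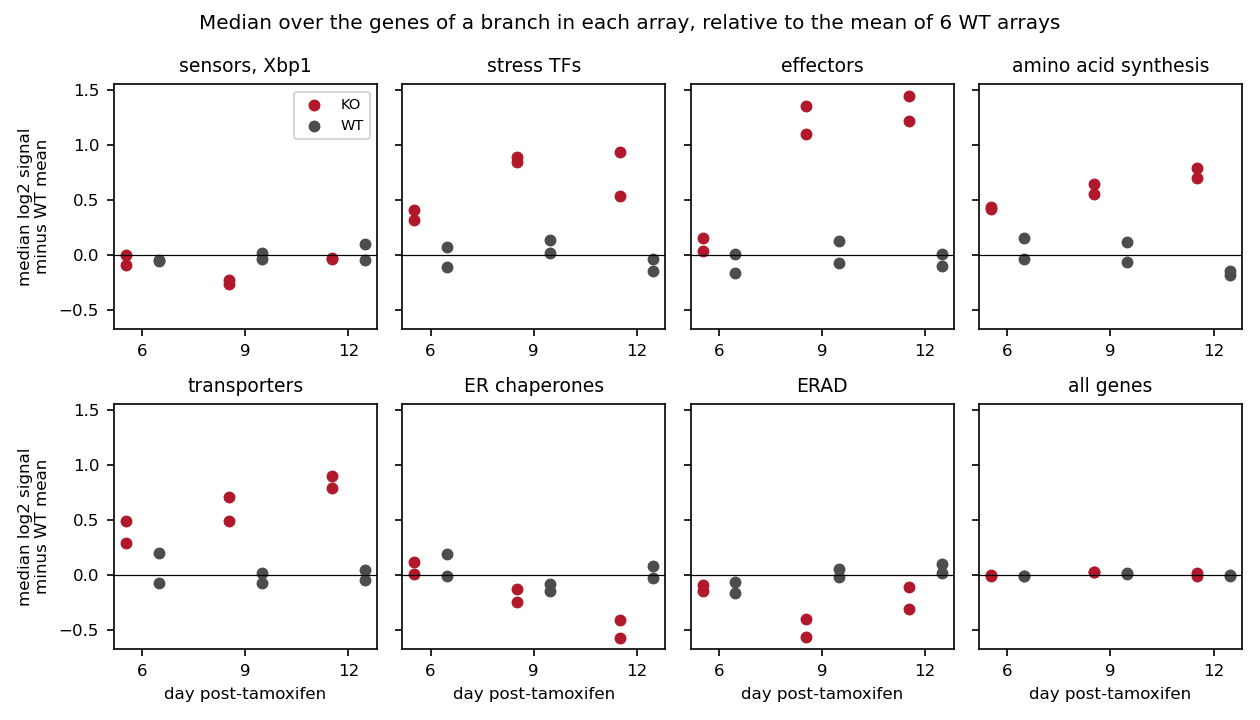
Median over the members of each branch of the log2 signal minus that gene's mean over the 6 WT arrays (y axis), per array, by day post-tamoxifen (x axis), with KO in red left of WT in grey. The effector branch reaches 1.10 to 1.45 in the KO arrays of days 9 and 12, the ER chaperone branch lies at -0.57 and -0.41 in the KO arrays of day 12, and the median over all genes stays within 0.03 of 0 on every array.

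Among the sensors, the PERK gene rose at all 3 days, Ern1 fell at days 9 and 12, and Ern2 fell at day 9. Eif2ak3, which encodes PERK, had signals of 9.30 and 9.14 in KO and 8.58 and 8.53 in WT at day 6, and 9.18 and 9.24 in KO and 8.59 and 8.58 in WT at day 9. At day 12 Eif2ak3 had 9.84 and 9.62 in KO and 8.68 and 8.58 in WT. All 6 KO mice lay above all 6 WT mice. Eif2ak3 rose by 0.66 (SE 0.10, adjusted p = 0.0127) at day 6, 0.62 (SE 0.10, adjusted p = 0.000713) at day 9 and 1.10 (SE 0.10, adjusted p = 9.08e-06) at day 12, and the day 12 difference was 2.15-fold. The day 6 call ended without any 1 of the 4 arrays of that day, with differences of 0.59 to 0.74.

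Ern1, the IRE1 form found in most tissues, had signals of 8.27 and 8.16 in KO and 8.48 and 8.36 in WT at day 6, and 7.77 and 8.03 in KO and 8.41 and 8.35 in WT at day 9. At day 12 Ern1 had 8.03 and 8.06 in KO and 8.43 and 8.32 in WT. Both KO mice lay below both WT mice at each day. Ern1 fell by 0.48 at day 9 (SE 0.10, adjusted p = 0.00463) and by 0.33 at day 12 (SE 0.10, adjusted p = 0.0355), after -0.21 (SE 0.10, adjusted p = 0.483) at day 6. Ern2, the IRE1 form of gut and airway epithelium, had 8.68 and 8.55 in KO and 8.52 and 8.68 in WT at day 6, and 7.61 and 8.13 in KO and 8.63 and 8.63 in WT at day 9. At day 12 Ern2 had 8.67 and 8.70 in KO and 8.71 and 8.44 in WT. Its groups overlapped at days 6 and 12 and not at day 9, when KO replicate 1 held the lowest value of the 12 arrays. Ern2 fell at day 9 (-0.76, SE 0.15, adjusted p = 0.00295) and stood at 0.02 (SE 0.15, adjusted p = 0.988) at day 6 and 0.11 (SE 0.15, adjusted p = 0.684) at day 12. The difference itself moved by -0.78 (SE 0.22, adjusted p = 0.0368) between days 6 and 9 and by 0.87 (SE 0.22, adjusted p = 0.0395) between days 9 and 12.

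Xbp1, the transcription factor whose mRNA IRE1 splices, had signals of 10.98 and 10.94 in KO and 10.89 and 10.84 in WT at day 6, and 11.25 and 10.91 in KO and 11.14 and 10.93 in WT at day 9. At day 12 the values were 10.96 and 10.91 in KO and 11.35 and 11.26 in WT. The groups overlapped at day 9 and both KO mice were lower at day 12, when Xbp1 fell by 0.37 (SE 0.12, adjusted p = 0.0359). The day 12 calls of Ern1 and Xbp1 ended without any 1 array of that day, with differences of -0.38 to -0.28 and -0.42 to -0.33 over all arrays left out. That of Ern1 also ended when a WT array of day 9 was left out, that of Xbp1 when a KO array of day 6 was, that of Ern1 with the smooth muscle covariate (-0.28), and both when only the 4 arrays of that day were fitted. Over the 4 genes of this branch, 1 rose and 2 fell at day 9 and 1 rose and 2 fell at day 12, with medians of -0.22 and -0.11.

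The promoters of the members below ATF4 were read for the composite element that ATF4 binds with a C/EBP partner, spelled TGATGNAAT, on both strands in the 250 bases before the start of each gene. Of the 42 members, 39 had a promoter in the RefSeq table for GRCm38.p6 (Ern2, Slc7a5 and Manf are named only). The 9 letters were found in 2 of these 39, Nupr1 and Fgf21, and in 0.910% of the 27025 promoters of all genes. A shorter form that lacks the last letter, TGATGNAA, was chosen after the matches had been seen and contains the longer one. It was found in 8 of the 39 members (Atf3, Nupr1, Chac1, Vldlr, Fgf21, Asns, Pck2 and Herpud1) and in 3.91% of all promoters. The 6 stretches are shown because they belong to genes of unlike response, from Vldlr and Asns to Fgf21, which was not called. Capitals mark the match, read on the reverse strand as TTNCATCA or ATTNCATCA in all but Asns, and each sequence runs 5′ to 3′ on the gene's own strand.
Asns, chr6:7693210-7693272, minus strand: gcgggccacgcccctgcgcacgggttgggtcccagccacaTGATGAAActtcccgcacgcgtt
Chac1, chr2:119351009-119351096, plus strand: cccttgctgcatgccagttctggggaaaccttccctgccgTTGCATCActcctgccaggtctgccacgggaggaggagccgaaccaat
Vldlr, chr19:27216780-27216867, plus strand: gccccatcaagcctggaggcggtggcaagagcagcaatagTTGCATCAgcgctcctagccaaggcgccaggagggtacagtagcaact
Atf3, chr1:191183396-191183483, minus strand: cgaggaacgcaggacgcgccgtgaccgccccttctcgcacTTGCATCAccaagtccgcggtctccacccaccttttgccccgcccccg
Nupr1, chr7:126625533-126625621, minus strand: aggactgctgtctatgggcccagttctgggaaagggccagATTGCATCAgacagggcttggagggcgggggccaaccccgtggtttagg
Fgf21, chr7:45615582-45615670, minus strand: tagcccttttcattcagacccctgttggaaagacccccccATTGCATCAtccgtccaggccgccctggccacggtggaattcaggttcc
Of the 6, the match in Asns lies closest to the start of its gene. A match is a string of letters and not a measured binding site, and genes without these letters in the 250 bases may hold other forms or more distant elements.

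Most transcription factors of the integrated stress response rose at days 9 and 12. At day 9, 5 of 7 rose and 1 fell, and at day 12 again 5 rose and 1 fell, with medians of 0.80 and 0.90. At day 6, 0 of 7 were called with limma (median 0.27), and 2 of 7 had an unadjusted p under 0.05, beside 2359 of 19938 genes. Atf4, the master factor, had signals of 8.57 and 8.59 in KO and 8.11 and 8.24 in WT at day 6, and 8.98 and 9.02 in KO and 8.32 and 8.09 in WT at day 9. At day 12 Atf4 had 9.23 and 8.90 in KO and 8.01 and 8.01 in WT. Every KO mouse was above every WT mouse, also across days. Atf4 rose by 0.80 (SE 0.12, adjusted p = 0.000426) at day 9 and by 1.06 (SE 0.12, adjusted p = 4.7e-05) at day 12, a 2.08-fold difference, after 0.40 (SE 0.12, adjusted p = 0.169) at day 6.

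Atf5, a relative of Atf4 that is likewise raised through translation, stood at 7.13 and 7.24 in KO and 6.79 and 6.94 in WT at day 6, and 8.48 and 7.97 in KO and 6.85 and 6.66 in WT at day 9. At day 12 Atf5 had 7.86 and 7.69 in KO and 6.54 and 6.49 in WT. KO mice of days 9 and 12 lay clear of all WT mice. Its rises were 1.47 (SE 0.15, adjusted p = 2.61e-05) at day 9 (2.77-fold) and 1.26 (SE 0.15, adjusted p = 6.61e-05) at day 12, and the day 6 difference was 0.32 (SE 0.15, adjusted p = 0.422). Ddit3, which encodes the pro-death factor CHOP, stood at 7.74 and 7.66 in KO and 7.66 and 7.21 in WT at day 6, and 8.51 and 8.30 in KO and 7.16 and 7.35 in WT at day 9. At day 12 Ddit3 had 8.28 and 7.81 in KO and 7.26 and 7.35 in WT. The groups overlapped at day 6 and not later. Ddit3 rose by 1.15 (SE 0.17, adjusted p = 0.000419) at day 9 (2.21-fold) and by 0.74 (SE 0.17, adjusted p = 0.0069) at day 12, and the day 12 call ended without KO replicate 1 of that day (0.50).

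Atf3, a stress-induced repressor, had a wide spread between WT mice, with 9.38 and 9.18 in KO and 9.17 and 8.21 in WT at day 6, and 9.31 and 9.51 in KO and 7.97 and 8.71 in WT at day 9. At day 12 Atf3 had 9.43 and 9.02 in KO and 8.63 and 7.73 in WT. No KO mouse fell below a WT mouse of its own day. Atf3 rose by 1.07 (SE 0.34, adjusted p = 0.0349) at day 9 and 1.05 (SE 0.34, adjusted p = 0.0414) at day 12. Differences over the arrays left out were 0.71 to 1.44 at day 9 and 0.60 to 1.49 at day 12. The day 9 call ended if KO replicate 1, KO replicate 2 or WT replicate 1 of that day was left out. The day 12 call ended without any array of that day but WT replicate 1, without any KO array of days 6 and 9, with the smooth muscle covariate (0.82), and both with a trended and robust prior in limma.

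Cebpg, a C/EBP factor that pairs with ATF4, moved against the rest, with 8.56 and 8.55 in KO and 8.42 and 8.50 in WT at day 6, and 8.31 and 8.53 in KO and 8.80 and 8.71 in WT at day 9. At day 12 Cebpg had 8.32 and 8.36 in KO and 8.75 and 8.65 in WT. Both KO mice lay below both WT mice at days 9 and 12 and above them at day 6. It fell by 0.34 at day 9 (SE 0.10, adjusted p = 0.0221) and by 0.36 at day 12 (SE 0.10, adjusted p = 0.0156). These calls ended if KO replicate 1 or WT replicate 1 of the day tested was left out, and at day 9 also without WT replicate 2. Differences over the arrays left out were -0.45 to -0.22 at day 9 and -0.41 to -0.32 at day 12. The day 9 call also ended with quantile normalisation (-0.23), and both ended when only the 4 arrays of the day were fitted. Of the other 2 factors, Cebpb, a C/EBP factor of inflammation and stress, rose at day 9 (0.62, SE 0.19, adjusted p = 0.0275) and stood at -0.01 at day 12. Its call ended if KO replicate 1 (0.45) or WT replicate 1 of day 9 (0.45) was left out. Nupr1, a small chromatin-linked stress protein, rose at day 12 (0.90, SE 0.20, adjusted p = 0.005), a call that ended without WT replicate 2 of that day (0.65).

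**Figure D4:**
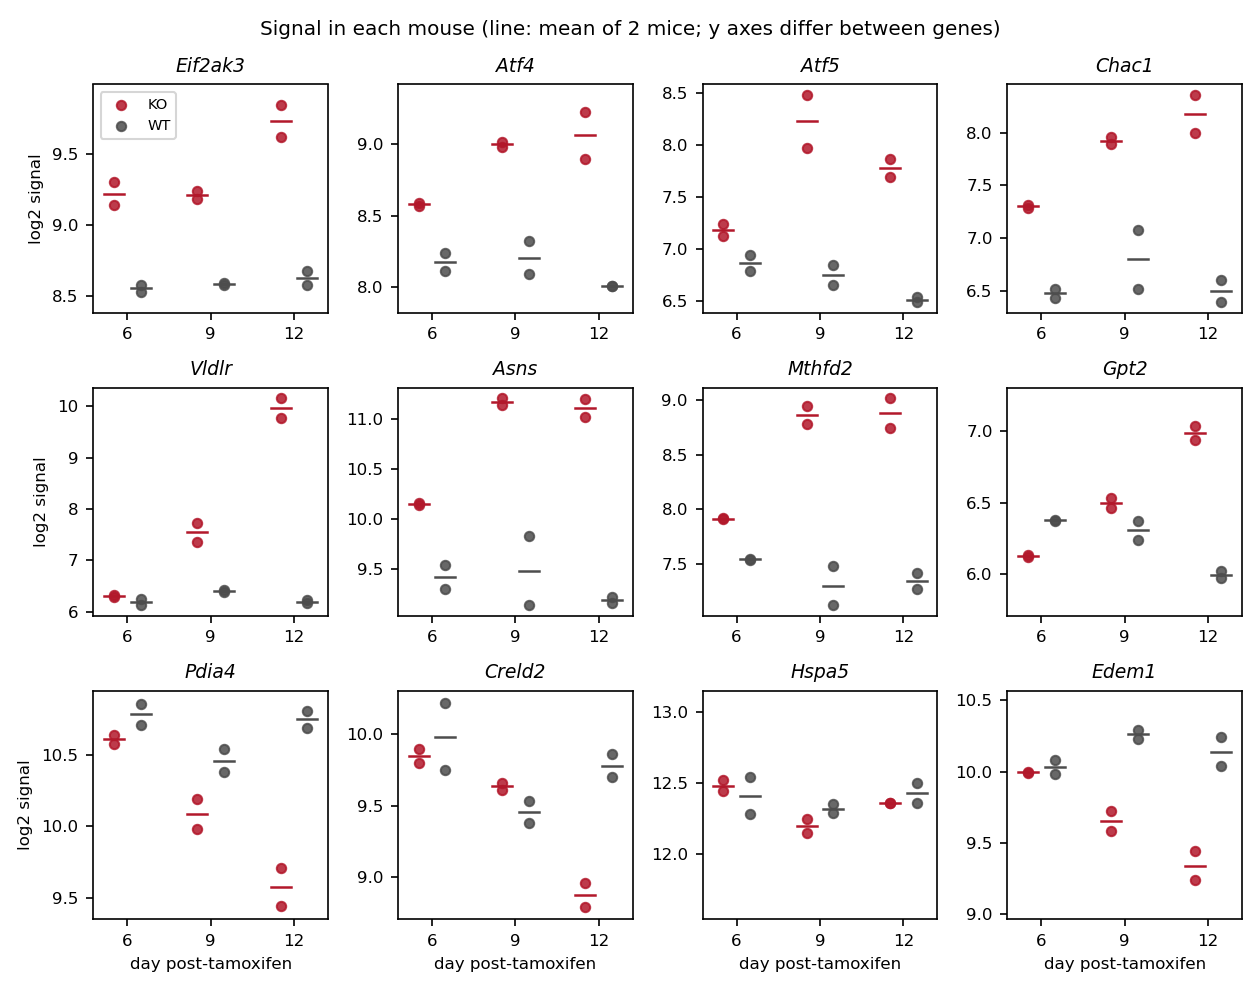
Log2 signal of 12 members (y axis, ranges differ between panels) in each mouse by day post-tamoxifen (x axis), with KO in red left of WT in grey and a line at the mean of 2 mice. Eif2ak3, Atf4, Atf5, Chac1, Vldlr, Asns and Mthfd2 lie higher in KO at days 9 and 12, Gpt2 does so most clearly at day 12, Hspa5 stays between 12.15 and 12.54 on all arrays, and Pdia4, Creld2 and Edem1 end lower in KO.

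Among the effectors and feedback genes was Vldlr, whose day 12 difference was the largest of the 42 members. Of 7, 2 rose at day 6, 5 at day 9 and 5 at day 12, 0 fell, and the medians were 0.12, 1.12 and 1.29. Of all genes, 0.597%, 12.6% and 13.7% rose at days 6, 9 and 12. Vldlr had signals of 6.28 and 6.32 in KO and 6.12 and 6.24 in WT at day 6, and 7.36 and 7.73 in KO and 6.39 and 6.43 in WT at day 9. At day 12 Vldlr had 9.77 and 10.16 in KO and 6.23 and 6.16 in WT. Its KO mice separated step by step while its WT mice stayed between 6.12 and 6.43, near the median of all probe sets (5.99). The difference was 0.12 (SE 0.14, adjusted p = 0.851) at day 6, 1.14 (SE 0.14, adjusted p = 0.000118) at day 9 (2.20-fold) and 3.77 (SE 0.14, adjusted p = 1.24e-08) at day 12 (13.6-fold), and it grew by 2.63 (SE 0.20, adjusted p = 6.29e-05) between days 9 and 12.

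Chac1 stood at 7.29 and 7.31 in KO and 6.43 and 6.52 in WT at day 6, and 7.89 and 7.96 in KO and 7.08 and 6.52 in WT at day 9. At day 12 Chac1 had 8.36 and 8.0 in KO and 6.39 and 6.6 in WT. Each KO mouse was above each WT mouse at every day. Chac1 rose by 0.82 (SE 0.17, adjusted p = 0.0469) at day 6, 1.12 (SE 0.17, adjusted p = 0.000426) at day 9 and 1.69 (SE 0.17, adjusted p = 1.82e-05) at day 12. Trib3, a pseudokinase that feeds back on ATF4 and CHOP, had 7.60 and 7.44 in KO and 6.51 and 6.97 in WT at day 6, and 7.87 and 8.11 in KO and 6.55 and 6.56 in WT at day 9. At day 12 Trib3 had 8.15 and 8.04 in KO and 6.82 and 6.78 in WT. All 6 KO values exceeded all 6 WT values. Trib3 rose by 0.78 (SE 0.14, adjusted p = 0.0331) at day 6, 1.43 (SE 0.14, adjusted p = 2.26e-05) at day 9 (2.69-fold) and 1.29 (SE 0.14, adjusted p = 3.78e-05) at day 12. Both day 6 calls ended if KO replicate 1, KO replicate 2 or WT replicate 1 of that day, or a WT array of day 12, was left out. That of Chac1 also ended if WT replicate 2 of day 6 or a KO array of day 9 was, and that of Trib3 if a WT array of day 9 was. Differences over the arrays left out were 0.78 to 0.87 for Chac1 and 0.55 to 1.01 for Trib3. That of Trib3 also ended when only the 4 arrays of day 6 were fitted.

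Ddit4 (REDD1), an inhibitor of the growth kinase mTORC1, had 7.54 and 7.87 in KO and 7.55 and 8.32 in WT at day 6, and 9.35 and 9.23 in KO and 7.77 and 7.58 in WT at day 9. At day 12 Ddit4 had 9.23 and 8.95 in KO and 7.59 and 7.59 in WT. The groups overlapped at day 6 and lay over 1 log2 unit apart at days 9 and 12. Ddit4 rose by 1.61 (SE 0.21, adjusted p = 0.000148) at day 9 (3.06-fold) and 1.5 (SE 0.21, adjusted p = 0.000214) at day 12. Ppp1r15a (GADD34), the phosphatase subunit that reverses eIF2 phosphorylation, had signals near the median of all probe sets and rose by 0.81 (SE 0.14, adjusted p = 0.000959) at day 9 and 0.61 (SE 0.14, adjusted p = 0.00581) at day 12, with no fold given, and the day 12 call ended without WT replicate 2 of that day (0.47). The secreted Stc2 ranged over 6.12 to 6.49 in KO and 5.78 to 6.40 in WT, and the hormone Fgf21 over 4.94 to 5.27 in KO and 4.88 to 5.28 in WT, below that median on every array. Neither was called at any day.

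Of 8 enzymes of amino acid synthesis and of the mitochondrial folate pathway, 4 rose at day 9, 6 rose at day 12 and 0 fell, with medians of 0.56 and 0.90. At day 6, 0 of 8 were called with limma (median 0.35), and 5 of 8 had an unadjusted p under 0.05, beside 2359 of 19938 genes. Asns had signals of 10.14 and 10.16 in KO and 9.30 and 9.54 in WT at day 6, and 11.21 and 11.14 in KO and 9.83 and 9.14 in WT at day 9. At day 12 Asns had 11.20 and 11.02 in KO and 9.22 and 9.16 in WT. All KO mice were above all WT mice. Its difference was 0.73 (SE 0.18, adjusted p = 0.0919) at day 6, 1.69 (SE 0.18, adjusted p = 3.68e-05) at day 9 (3.22-fold) and 1.92 (SE 0.18, adjusted p = 1.08e-05) at day 12 (3.79-fold). The day 6 difference of Asns was called when only the 4 arrays of that day were fitted.

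Mthfd2, a folate enzyme of mitochondria, had 7.91 and 7.92 in KO and 7.55 and 7.54 in WT at day 6, and 8.95 and 8.78 in KO and 7.48 and 7.12 in WT at day 9. At day 12 Mthfd2 had 9.02 and 8.75 in KO and 7.27 and 7.42 in WT. The groups did not overlap at any day, and the gap widened after day 6. Mthfd2 rose by 1.56 (SE 0.13, adjusted p = 6.76e-06) at day 9 (2.95-fold) and 1.54 (SE 0.13, adjusted p = 5.74e-06) at day 12. Psat1, the aminotransferase of serine synthesis, had 7.56 and 7.65 in KO and 6.89 and 7.33 in WT at day 6, and 8.21 and 8.13 in KO and 7.11 and 6.89 in WT at day 9. At day 12 Psat1 had 7.90 and 8.13 in KO and 6.79 and 6.78 in WT. KO mice again exceeded WT mice at every day. Psat1 rose by 1.17 (SE 0.14, adjusted p = 1e-04) at day 9 and 1.24 (SE 0.14, adjusted p = 5.45e-05) at day 12 (2.36-fold).

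Gpt2, the mitochondrial alanine aminotransferase, followed a later course, with 6.13 and 6.12 in KO and 6.37 and 6.38 in WT at day 6, and 6.53 and 6.46 in KO and 6.37 and 6.24 in WT at day 9. At day 12 Gpt2 had 6.94 and 7.04 in KO and 6.02 and 5.97 in WT. KO mice lay below WT mice at day 6 and above them at days 9 and 12. The difference was -0.25 (SE 0.09, adjusted p = 0.262) at day 6, 0.19 (SE 0.09, adjusted p = 0.13) at day 9 and 0.99 (SE 0.09, adjusted p = 6.87e-06) at day 12, and it grew by 0.81 (SE 0.12, adjusted p = 0.00621) between days 9 and 12. Psph, the last enzyme of serine synthesis, rose by 0.67 (SE 0.12, adjusted p = 0.00116) at day 9 and 0.80 (SE 0.12, adjusted p = 0.000301) at day 12, and Pck2, the mitochondrial form of PEPCK, by 0.46 (SE 0.10, adjusted p = 0.00465) at day 12. The first enzyme of serine synthesis, Phgdh, was not called, with 0.44 (SE 0.19, adjusted p = 0.103) at day 9 and -0.12 (SE 0.19, adjusted p = 0.723) at day 12. Its day 9 difference was called when only the 4 arrays of that day were fitted. A further probe set, which Phgdh shares with Gm6756, was not used. Shmt2, the mitochondrial enzyme that turns serine into glycine, was called at no single day in the main fit. At day 9 it was called with quantile normalisation, with only the 4 arrays of that day fitted and with the smooth muscle covariate. At day 12 it was called with that covariate. Shmt2 rose in the average over the 3 days (0.49, SE 0.09, adjusted p = 0.00121, 6 mice per genotype). That average called 30 of the 42 members, 20 higher and 10 lower, against 32.6% of all genes (15.7% higher and 16.9% lower).

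Of the 3 amino acid transporters, 2 rose at days 9 and 12. Slc7a1 (CAT1), which takes up arginine and lysine, had signals of 9.46 and 9.27 in KO and 9.12 and 9.17 in WT at day 6, and 9.46 and 9.68 in KO and 8.87 and 8.58 in WT at day 9. At day 12 Slc7a1 had 9.87 and 9.99 in KO and 9.02 and 9.09 in WT. KO mice were above WT mice at each day. Slc7a1 rose by 0.85 (SE 0.12, adjusted p = 0.000308) at day 9 and 0.88 (SE 0.12, adjusted p = 0.000208) at day 12. Slc7a5 (LAT1), an exchanger of large neutral amino acids, had 8.36 and 8.22 in KO and 7.59 and 8.17 in WT at day 6, and 8.54 and 8.79 in KO and 8.14 and 7.78 in WT at day 9. At day 12 Slc7a5 had 9.09 and 8.63 in KO and 7.82 and 7.57 in WT. Its groups did not overlap at any day. Slc7a5 rose by 0.70 (SE 0.21, adjusted p = 0.024) at day 9 and 1.16 (SE 0.21, adjusted p = 0.00129) at day 12 (2.24-fold).

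Slc3a2 (CD98), the heavy chain that carries Slc7a5 and other light chains to the membrane, went the other way, with 11.92 and 11.85 in KO and 11.88 and 11.89 in WT at day 6, and 11.49 and 11.59 in KO and 11.98 and 11.98 in WT at day 9. At day 12 Slc3a2 had 11.89 and 11.60 in KO and 12.08 and 11.91 in WT. Both KO mice lay below both WT mice at days 9 and 12. Slc3a2 fell by 0.44 at day 9 (SE 0.11, adjusted p = 0.00945) and stood at -0.25 (SE 0.11, adjusted p = 0.114) at day 12. The day 9 call of Slc3a2 ended without KO replicate 1 (-0.39) or WT replicate 2 of that day (-0.44). For Slc7a5 it ended without KO replicate 2 (0.58) or WT replicate 2 (0.52).

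The promoters of the ER chaperones were read in the same way for the ER stress element, CCAAT and CCACG spaced by 9 bases, in which ATF6 binds the last letters and the factor NF-Y the first. It was found in 5 of the 9 members of that branch with a promoter, in 0 of the other 30 members and in 0.130% of all 27025 promoters. A second form, ATTGG and CCACG spaced by 1 base, was found in Herpud1 alone among the members and in 0.037% of all promoters. The element TGACGTGG, linked to XBP1, was found in 0 members and in 0.603% of all promoters. All 5 promoters and that of Herpud1 are shown, since Pdia6, Creld2 and Hsp90b1 fell at day 12 while Hspa5 and Dnajc3 carry the same element and were not called. Pdia4, Sdf2l1 and Dnajb11 also fell at day 12 and had no match to the element. Capitals mark the element, on the reverse strand in Creld2 and in the second Hsp90b1 stretch, which is nearer to the start.
Hspa5, chr2:34771985-34772083, plus strand: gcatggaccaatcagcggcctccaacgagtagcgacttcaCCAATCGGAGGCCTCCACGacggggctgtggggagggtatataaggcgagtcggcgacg
Dnajc3, chr14:118937787-118937885, plus strand: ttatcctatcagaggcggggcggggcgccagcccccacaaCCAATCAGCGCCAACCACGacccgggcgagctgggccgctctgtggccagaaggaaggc
Hsp90b1, chr10:86705598-86705694, minus strand: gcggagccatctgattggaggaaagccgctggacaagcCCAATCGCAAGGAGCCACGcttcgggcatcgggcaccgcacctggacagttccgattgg
Hsp90b1, chr10:86705493-86705591, minus strand: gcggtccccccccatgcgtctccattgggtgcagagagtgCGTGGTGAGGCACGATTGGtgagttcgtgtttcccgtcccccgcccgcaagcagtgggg
Pdia6, chr12:17266451-17266549, plus strand: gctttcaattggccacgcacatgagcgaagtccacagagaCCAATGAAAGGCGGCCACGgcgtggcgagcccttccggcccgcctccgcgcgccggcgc
Creld2, chr15:88819480-88819578, plus strand: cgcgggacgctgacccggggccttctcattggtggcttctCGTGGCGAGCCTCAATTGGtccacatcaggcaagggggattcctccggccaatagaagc
Herpud1, chr8:94386337-94386427, plus strand: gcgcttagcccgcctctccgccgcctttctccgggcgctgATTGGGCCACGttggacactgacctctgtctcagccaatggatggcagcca

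ER chaperones and folding enzymes did not rise at any day, and most fell at day 12. Of 10 members, 0 were called at day 6 with limma, 1 fell at day 9 and 6 fell at day 12, with medians of -0.01, -0.09 and -0.49. At day 6, 0 of 10 had an unadjusted limma p under 0.05, beside 2359 of 19938 genes. Pdia4, a disulphide isomerase, had signals of 10.64 and 10.58 in KO and 10.86 and 10.71 in WT at day 6, and 9.98 and 10.19 in KO and 10.54 and 10.38 in WT at day 9. At day 12 Pdia4 had 9.71 and 9.44 in KO and 10.81 and 10.69 in WT. KO mice were below WT mice at each day, and the gap was widest at day 12. Pdia4 fell by 0.37 at day 9 (SE 0.12, adjusted p = 0.0353) and by 1.17 at day 12 (SE 0.12, adjusted p = 2.16e-05), and its difference moved by -0.80 (SE 0.17, adjusted p = 0.0219) between those days. The day 9 call ended without either KO array of day 6, without any array of day 9 but KO replicate 2 (differences of -0.48 to -0.26), with quantile normalisation (-0.27), with the mean of the gene's 2 probe sets (-0.21) and with only the 4 arrays of day 9 fitted.

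Creld2, an ER protein induced by unfolded protein, had 9.90 and 9.80 in KO and 10.22 and 9.75 in WT at day 6, and 9.66 and 9.61 in KO and 9.53 and 9.38 in WT at day 9. At day 12 Creld2 had 8.96 and 8.79 in KO and 9.86 and 9.70 in WT. The groups overlapped at day 6, KO mice were above WT mice at day 9, and they were below them at day 12. Creld2 stood at 0.18 (SE 0.14, adjusted p = 0.374) at day 9 and fell by 0.90 at day 12 (SE 0.14, adjusted p = 0.000509), and its difference moved by -1.08 (SE 0.20, adjusted p = 0.0123) between those days. Pdia6, another disulphide isomerase, had 11.20 and 11.08 in KO and 11.28 and 11.00 in WT at day 6, and 10.84 and 10.84 in KO and 11.00 and 10.80 in WT at day 9. At day 12 Pdia6 had 10.53 and 10.38 in KO and 11.24 and 11.21 in WT. Its groups overlapped at days 6 and 9 and separated at day 12. Pdia6 fell by 0.77 at day 12 (SE 0.11, adjusted p = 0.000364).

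Sdf2l1, a partner of BiP, had 8.34 and 8.32 in KO and 8.60 and 8.52 in WT at day 6, and 8.31 and 8.31 in KO and 8.35 and 7.99 in WT at day 9. At day 12 Sdf2l1 had 7.83 and 7.57 in KO and 8.41 and 8.17 in WT. Both KO mice lay below both WT mice at days 6 and 12. It fell by 0.59 at day 12 (SE 0.13, adjusted p = 0.0059), a call that ended without WT replicate 1 of that day (-0.47). The ER form of HSP90, Hsp90b1 (GRP94), and the BiP co-chaperone Dnajb11 also fell at day 12, by 0.58 (SE 0.11, adjusted p = 0.00174) and 0.41 (SE 0.08, adjusted p = 0.00304). Hspa5, with signals of 12.15 to 12.52 over the KO mice and 12.28 to 12.54 over the WT mice, was not called at any day, and neither were the co-chaperones Dnajb9 and Dnajc3 and the secreted Manf, whose differences lay between -0.31 and 0.21. Beside the falls of day 12, 5 of 6 Paneth cell markers and 4 of 8 B and plasma cell markers fell on the same arrays, the B and plasma cell list with Jchain at -1.46 (SE 0.18, adjusted p = 9.4e-05), Mzb1, an ER protein of plasma cells, at -1.13 (SE 0.15, adjusted p = 0.000155) and a rise of Sdc1 by 1.11. Goblet cell markers, of another secretory cell type, had 1 rise and 1 fall among 7 on these arrays. The part of these cells in the chaperone values was not tested.

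Of the 3 genes of ER-associated degradation, Edem1 and Sel1l fell and Herpud1 rose. Edem1, a lectin that draws misfolded glycoproteins to degradation, had signals of 9.99 and 10.00 in KO and 9.98 and 10.08 in WT at day 6, and 9.58 and 9.72 in KO and 10.29 and 10.23 in WT at day 9. At day 12 Edem1 had 9.44 and 9.24 in KO and 10.24 and 10.04 in WT. The groups overlapped at day 6 and lay apart at days 9 and 12. Edem1 fell by 0.61 at day 9 (SE 0.11, adjusted p = 0.00126) and by 0.80 at day 12 (SE 0.11, adjusted p = 0.000168). Sel1l, the adaptor of the HRD1 ligase, had 10.25 and 10.13 in KO and 10.26 and 10.19 in WT at day 6, and 9.74 and 9.94 in KO and 10.40 and 10.32 in WT at day 9. At day 12 Sel1l had 10.03 and 10.23 in KO and 10.48 and 10.39 in WT. KO mice were below WT mice at both later days. It fell by 0.52 at day 9 (SE 0.11, adjusted p = 0.0034) and stood at -0.30 (SE 0.11, adjusted p = 0.0539) at day 12. The day 12 difference of Sel1l was called with quantile normalisation, with a filter on dim genes and with a trended and robust prior.

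Herpud1, a membrane protein that recruits the degradation complex, had 10.85 and 10.82 in KO and 10.47 and 10.84 in WT at day 6, and 10.85 and 10.76 in KO and 10.70 and 10.65 in WT at day 9. At day 12 Herpud1 had 11.14 and 11.07 in KO and 10.79 and 10.71 in WT. Both KO mice lay above both WT mice at days 9 and 12. It rose by 0.36 (SE 0.11, adjusted p = 0.0387) at day 12. That call ended if any 1 array of day 12, a KO array of day 6 or a WT array of day 9 was left out (differences of 0.32 to 0.40), with quantile normalisation (0.33), with the smooth muscle covariate (0.38) and with only the 4 arrays of day 12 fitted.

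The change of the difference between days was tested directly. Between days 6 and 9 it was called for 13 of 42 members, 11 higher and 2 lower, against 12.7% of all genes (3.52% higher and 9.19% lower). The largest of these was that of Ddit4 (1.84, SE 0.29, adjusted p = 0.00235), followed by Mthfd2 (1.19, SE 0.19, adjusted p = 0.00225) and Atf5 (1.14, SE 0.21, adjusted p = 0.00527), and the 2 lower ones were Ern2 (-0.78) and Edem1 (-0.57). Between days 9 and 12 it was called for 7 members, 3 higher (Vldlr, Gpt2 and Ern2) and 4 lower (Creld2, Pdia4, Sdf2l1 and Pdia6), against 6.08% of all genes (4.06% higher and 2.02% lower). Each of the 4 lower ones belongs to the ER chaperone branch. For Creld2, Pdia4 and Pdia6, both KO mice were lower and both WT mice higher at day 12 than at day 9. Part of the change of these genes thus lay in WT. The WT mice of Sdf2l1 overlapped between these days. The tests between days 6 and 9 and between days 9 and 12 share the arrays of day 9. With quantile normalisation the calls were 11 higher and 0 lower between days 6 and 9 and 2 higher and 5 lower between days 9 and 12, so the lower calls of Ern2 and Edem1 ended. With arrays centred on their medians they were 9 higher and 4 lower, and 3 higher and 3 lower. The interaction over all 3 days was called for 19 members, against 18.5% of all genes. The first count was 4 to 8 with any 1 array of day 6 left out and 4 with the smooth muscle covariate. Of the day 9 arrays, it was 6 if KO replicate 1 was left out, 7 for WT replicate 1 and 5 for WT replicate 2. The second was 4 if KO replicate 1 of day 9 was left out, 2 for WT replicate 2 of day 9, 4 for KO replicate 2 of day 12 and 3 for each WT array of day 12. The interaction count was 10 and 11 if KO replicates 1 and 2 of day 6 were left out, and 9 with the covariate. In WT alone, 0 of 42 members changed over the days with limma, and 0.0201% of all genes did. At an unadjusted p under 0.05 in the same test there were 10 of 42 members, beside 2003 of 19938 genes. Of the 10 ER chaperones and folding enzymes, 5 were among these members.

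Genes further up and down the same pathways were taken from 9 lists, of whose 153 entries 140 were measured. Their counts stand beside 1.03%, 29.7% and 27.3% of all genes called at days 6, 9 and 12. These lists too were chosen with earlier results of these data known. Of 13 genes for eIF2, its kinases and its control, 6 rose and 1 fell at day 9 and 5 rose at day 12, with medians of 0.31 and 0.23 beside 0.02 over all genes at both days. Eif4ebp1, the ATF4-induced brake on cap-dependent translation, rose by 1.62 (SE 0.14, adjusted p = 7.16e-06) at day 9 and 1.46 (SE 0.14, adjusted p = 1.26e-05) at day 12, and Eif2s2, the beta subunit of eIF2, by 0.93 (SE 0.11, adjusted p = 6.37e-05) and 1.34 (SE 0.11, adjusted p = 2.88e-06). The haem-regulated kinase Eif2ak1 fell at day 9 (-0.67, SE 0.14, adjusted p = 0.00381). Of the other eIF2 kinases, the amino acid sensor Eif2ak4 (GCN2) stood at 0.27 (SE 0.10, adjusted p = 0.0567) at day 12 and the RNA-sensing Eif2ak2 (PKR) at -0.25 (SE 0.21, adjusted p = 0.458), and neither was called at any day.

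Of 17 further amino acid genes linked to ATF4, 1 rose and 1 fell at day 6, 5 rose and 3 fell at day 9, and 10 rose and 2 fell at day 12, with medians of 0.15 and 0.39 at the later days. Slc7a11, which brings in cystine, had signals of 5.87 and 6.00 in KO and 5.40 and 6.23 in WT at day 6, and 9.10 and 9.28 in KO and 5.52 and 5.25 in WT at day 9. At day 12 Slc7a11 had 10.38 and 10.17 in KO and 4.98 and 5.89 in WT. Its KO mice of days 9 and 12 lay over 2 log2 units above every WT mouse. Slc7a11 rose by 3.80 (SE 0.29, adjusted p = 2.84e-06) at day 9 and 4.84 (SE 0.29, adjusted p = 3.31e-07) at day 12, with no fold given because the WT means lay below the median of all probe sets. The other genes named for their rises were Sesn2, an inhibitor of mTORC1, at day 6 (0.70, SE 0.11, adjusted p = 0.0144), the folate enzyme Mthfd1l at day 9 (0.93, SE 0.14, adjusted p = 0.000447) and the glycine transporter Slc6a9 at day 12 (1.52, SE 0.15, adjusted p = 1.64e-05). Aldh18a1, which starts proline and ornithine synthesis, fell at day 6 (-0.50, SE 0.09, adjusted p = 0.0359), day 9 (-1.51, SE 0.09, adjusted p = 6.81e-07) and day 12 (-1.31, SE 0.09, adjusted p = 1.3e-06). The cytosolic serine enzyme Shmt1 fell at day 9 (-0.54, SE 0.12, adjusted p = 0.0067) and day 12 (-0.86, SE 0.12, adjusted p = 0.000296).

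Cytosolic tRNA synthetases charge tRNAs with amino acids, and many are known targets of ATF4. Of 17, 3 rose at day 6, 8 rose and 1 fell at day 9, and 9 rose at day 12, with medians of 0.46 and 0.54 at days 9 and 12. Gars, for glycine, had 9.88 and 9.95 in KO and 9.34 and 9.35 in WT at day 6, and 11.12 and 10.93 in KO and 9.38 and 9.22 in WT at day 9. At day 12 Gars had 11.20 and 10.89 in KO and 9.32 and 9.26 in WT. No WT mouse reached the lowest KO mouse. Gars rose by 0.57 (SE 0.12, adjusted p = 0.0478) at day 6, 1.72 (SE 0.12, adjusted p = 1.39e-06) at day 9 (3.30-fold) and 1.76 (SE 0.12, adjusted p = 8.41e-07) at day 12. Rars, for arginine, rose at day 6 (0.44, SE 0.09, adjusted p = 0.0433), Cars, for cysteine, at day 9 (0.95, SE 0.15, adjusted p = 0.000626) and Sars, for serine, at day 12 (1.19, SE 0.08, adjusted p = 1.27e-06), while Kars, for lysine, fell at day 9 (-0.44, SE 0.11, adjusted p = 0.00938).

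Of 11 genes of the ATF6 pathway and related factors anchored in the ER, 7 fell at day 9, and 5 fell and 1 rose at day 12, with medians of -0.42 and -0.25. Atf6 itself fell at day 9 (-0.38, SE 0.13, adjusted p = 0.0383) and stood at 0.36 (SE 0.13, adjusted p = 0.0557) at day 12. Creb3l2, a factor that is cut at the Golgi as ATF6 is, had 8.01 and 8.54 in KO and 9.59 and 9.55 in WT at day 9, and Creb3l2 and its relative Creb3l4 fell by 1.29 (SE 0.17, adjusted p = 0.000155) and 1.2 (SE 0.12, adjusted p = 2.87e-05). At day 12, Creb3l3, the form of liver and small intestine, fell by 1.37 (SE 0.13, adjusted p = 1.76e-05) and Bhlha15 (MIST1), a factor of secretory cells that acts below XBP1, by 1.25 (SE 0.23, adjusted p = 0.0015). The rise was that of the ER membrane protein Wfs1 (0.38, SE 0.09, adjusted p = 0.0104). On the arrays of day 12, 5 of 6 Paneth cell markers fell, and 4 of 8 B and plasma cell markers fell while 1 rose. Of 7 goblet cell markers, 1 rose and 1 fell at day 12. On the arrays of day 9, 0 of 6 Paneth cell markers and 0 of 7 goblet cell markers were called. Of 8 B and plasma cell markers, 2 fell and 1 rose at day 9.

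Of 17 further ER chaperones and folding enzymes, 1 rose at day 6, 1 rose and 4 fell at day 9, and 2 rose and 8 fell at day 12, with medians of -0.12 and -0.35 at days 9 and 12. The share called was 29.4% at day 9, beside 29.7% of all genes, and 58.8% at day 12, beside 27.3%. The 2 ER oxidases, which form disulphides, moved apart. Ero1a had 11.51 and 11.60 in KO and 10.21 and 10.11 in WT at day 9 and rose at day 6 (0.45, SE 0.09, adjusted p = 0.0453), day 9 (1.39, SE 0.09, adjusted p = 9.94e-07) and day 12 (0.80, SE 0.09, adjusted p = 4.49e-05). Ero1b, the form of secretory tissues, had 6.09 and 6.26 in KO and 7.93 and 8.05 in WT at day 12 and fell at day 9 (-1.34, SE 0.15, adjusted p = 5.61e-05) and day 12 (-1.82, SE 0.15, adjusted p = 4.31e-06). Hyou1 (GRP170) fell at day 12 (-0.94, SE 0.13, adjusted p = 0.000224) and Txndc11 at day 9 (-0.62, SE 0.12, adjusted p = 0.00195), and the disulphide reductase Dnajc10 rose at day 12 (0.60, SE 0.09, adjusted p = 0.000589).

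Of 16 further genes of ER-associated degradation, 4 rose and 4 fell at day 9, and 6 rose and 3 fell at day 12, with medians of -0.15 and 0.10. Derl3, a channel component of secretory cells, fell at day 9 (-0.69, SE 0.16, adjusted p = 0.0081) and day 12 (-0.70, SE 0.16, adjusted p = 0.00734), Erlec1 at day 9 (-0.48, SE 0.09, adjusted p = 0.00184) and Edem2 at day 12 (-0.59, SE 0.13, adjusted p = 0.00623). The ubiquitin-conjugating Ube2g2 (0.59, SE 0.13, adjusted p = 0.00475) and Selenos (0.50, SE 0.10, adjusted p = 0.00304) rose at day 9, and Nploc4 (0.69, SE 0.14, adjusted p = 0.00283) and Ufd1 (0.64, SE 0.11, adjusted p = 0.00127), cofactors of the ATPase VCP, at day 12. Of 29 genes of ER translocation and ER-to-Golgi traffic, 4 rose and 13 fell at day 9, and 2 rose and 10 fell at day 12, with medians of -0.15 and -0.17. The cargo receptor Lman1 fell at day 9 (-1.27, SE 0.15, adjusted p = 7.22e-05) and day 12 (-1.19, SE 0.15, adjusted p = 9.32e-05), the coat regulator Arfgap3 at day 9 (-0.92, SE 0.16, adjusted p = 0.00139) and the coat protein Sec24d at day 12 (-0.74, SE 0.09, adjusted p = 6e-05). Rises were those of the translocon subunit Sec61b at day 9 (1.39, SE 0.24, adjusted p = 0.00119), the signal recognition particle protein Srp19 at day 9 (0.54, SE 0.09, adjusted p = 0.000951) and day 12 (0.27, SE 0.09, adjusted p = 0.044), and the retrieval receptor Kdelr3 at day 12 (1.17, SE 0.13, adjusted p = 5.02e-05).

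The chaperone lists of other compartments were mixed. Of 12 mitochondrial chaperones and proteases, 4 rose and 3 fell at day 9 and 2 rose and 3 fell at day 12, with medians of -0.09 and -0.21. The protease Lonp1 (0.75, SE 0.10, adjusted p = 0.000272) and the chaperonin subunit Hspe1 (0.46, SE 0.12, adjusted p = 0.0146) rose at day 9, and Hspa9 (0.38, SE 0.09, adjusted p = 0.0105) and Timm17a (0.31, SE 0.09, adjusted p = 0.0192) at day 12. The protease Yme1l1 fell at day 9 (-0.60, SE 0.12, adjusted p = 0.00295), Htra2 at day 9 (-0.53, SE 0.11, adjusted p = 0.00434) and day 12 (-0.59, SE 0.11, adjusted p = 0.00209) and Trap1 at day 12 (-0.74, SE 0.09, adjusted p = 0.000115). Of 8 cytosolic heat shock genes, 1 fell at day 6, 2 rose at day 9, and 1 rose and 2 fell at day 12, with medians of 0.12 and 0.04 at the later days. The share called was 25% at day 9 and 37.5% at day 12, beside 29.7% and 27.3% of all genes. Hspa1a, which has a near-identical neighbour in Hspa1b and is uncertain for that reason, was lower in KO at day 6 (-1.19, SE 0.21, adjusted p = 0.0317). Its day 6 signals were 7.06 and 6.77 in KO and 8.53 and 7.67 in WT. In WT it had 6.81 and 6.97 at day 9 and 6.73 and 6.74 at day 12, so the WT arrays of day 6 were the high ones. The co-chaperone Bag3 (0.63, SE 0.11, adjusted p = 0.00106) and Hsp90aa1 (0.48, SE 0.12, adjusted p = 0.0122) rose at day 9. At day 12 the small heat shock protein Hspb1 rose (1.10, SE 0.23, adjusted p = 0.00403), and Hsph1 (-1.78, SE 0.21, adjusted p = 6.27e-05) and Dnajb1 (-0.43, SE 0.12, adjusted p = 0.0169) fell.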

How the data were processed

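Total RNA of whole jejunum from 12 mice was hybridised to Affymetrix Mouse Gene 1.0 ST arrays, per the labels. The authors deposited 1 normalised value per probe set and array, used here as log2 signals: the values run over 2.29 to 14.13 with array medians of 5.95 to 6.02, and the base of the logarithm is inferred from that range. Limma and R 3.5 are listed in the submitters' processing notes without a stated use. How background, summary values per probe set and normalisation were handled is not given in the sources used here. Of 35556 probe sets, 21789 carried 1 gene symbol in the platform annotation, 1621 several and 12146 none. For genes with several probe sets, the one with the highest mean was kept (among the members Dnajc3 and Pdia4, each with 2), which left 19938 genes.

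Genotype and day were fitted as 6 group means with limma 3.58.1 in R 4.3.3 (6 residual degrees of freedom and 5.23 from the prior), after the procedure had been tested on simulated data. Moderated tests were adjusted by Benjamini-Hochberg over the 19938 genes with a threshold of 0.05. Precision is limited by the number of arrays, and the median SE of a difference was 0.11 at 1 day and 0.07 for the average. Folds are given where both group means lie above 5.99, the median of all probe sets. Alternatives were median centring, quantile normalisation, a filter on dim genes, the mean of a gene's probe sets, a trended and robust prior, the arrays of 1 day alone, the smooth muscle mean as a covariate, the replicate number as a block and each array left out in turn.

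The members, the pathway lists and the markers were chosen with earlier results of these data known. Values in all arrays are given for up to 4 called members per branch with the largest difference and for those called against their branch, and of each pathway list up to 2 called genes per direction and day are named. Atf6, Eif2ak2 and Eif2ak4 were added for their role after their values were seen. Promoters are RefSeq sequences of GRCm38.p6, printed as the match with up to 40 bases on each side.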

Additional observations from a re-analysis of the deposited data

Results flagged for a closer look

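For 19 of the 42 members the KO minus WT difference depended on the day in the limma interaction test over the 3 days, and the value given after each gene is the adjusted p. Among transcription factors these were Atf4 (0.0448), Atf5 (0.0065) and Nupr1 (0.034), and among sensors Ern2 (0.0258). Effectors with an unequal difference were Ppp1r15a (0.0236), Ddit4 (0.00202) and Vldlr (2.81e-06). Among enzymes of amino acid synthesis they were Asns (0.0145), Psat1 (0.037), Psph (0.0117), Mthfd2 (0.00168) and Gpt2 (0.000191), and among transporters Slc7a1 (0.0279). In the 12 of these genes other than Ern2, the difference was higher at day 12 than at day 6. The ER chaperones with an unequal difference were Dnajb11 (0.0277), Sdf2l1 (0.0462), Pdia4 (0.00416), Pdia6 (0.0105) and Creld2 (0.00786), and of ER-associated degradation Edem1 (0.0108), and in all 6 of these it was lower at day 12 than at day 6. With 2 mice per group the outlying mouse of a group was not sought. Such a difference was called for 18.5% of all genes.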

How the results depend on the processing

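No member called in the results reversed its direction under any alternative tried, whereas some uncalled differences near 0 changed sign. Of the members called, 0 of 3 at day 6, 18 of 24 at day 9, 21 of 30 at day 12 and 26 of 30 in the average over days stayed called under all of them (20 for each day). With the smooth muscle mean as a covariate, the members called were 0 at day 6 (20 of all genes), 4 for the change between days 6 and 9, and 9 for the interaction. At day 6 this mean did not overlap between KO and WT, so what smooth muscle contributes cannot be read from these counts. Leaving out 1 array at a time gave 0 to 4 members called at day 6, 19 to 25 at day 9, 24 to 31 at day 12, 27 to 30 in the average, 4 to 15 for the change between days 6 and 9, 2 to 10 for that between days 9 and 12, 10 to 22 for the interaction and 0 for the change over days in WT. Over all genes the same fits called 21 to 291 at day 6, 3646 to 6542 at day 9, 3740 to 5557 at day 12 and 5541 to 7128 in the average. The cause of these changes was not tested, beyond the smaller number of arrays.

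With the replicate block, the members called were 2 at day 6 (Chac1 was lost), 24 at day 9, 30 at day 12, 30 in the average, 12 and 7 for the changes between days and 22 for the interaction. Nothing in the labels pairs the mice by number, and 4 of 15 pairs of groups had a correlation of deviations over 0.1 (range -0.15 to 0.35). By these deviations, 10 of 12 arrays correlated best with an array of their own number. Both deviations of a group mirror each other, so its 2 arrays always give the same answer and the 12 are not independent. The count comes from the data and not from the design, and it cannot decide whether mice were paired. At day 6, 58.0% of the genes called were higher, against 68.3% with arrays centred on their medians and 51.7% with quantile normalisation, and for the change between days 9 and 12 it was 66.8%, against 56.2% with quantile normalisation. In the average, the calls of Pck2, Sdf2l1, Creld2 and Herpud1 ended without some arrays (0.16 to 0.23, -0.29 to -0.17, -0.36 to -0.21 and 0.16 to 0.28). Of the 42 members, 41 passed the filter on dim genes, and Fgf21, below the median of all probe sets in every group, did not.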
